A study of Mus musculus with 2 samples.

Results

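Macrophages that held much Spp1 RNA and little Arg1 RNA were picked out of CD45+ cells from mouse tumours by a fixed gate on the counts of each cell. A cell had to show 500 or more genes, at most 10% mitochondrial counts, at least 1% of its counts in C1qa, C1qb and C1qc together, and no count of Cd3d, Cd3e, Cd3g, Mki67, Top2a or Nos2. It also had to hold fewer than 10 counts each of Arg1 and Cxcl9 and fewer than 3 of Ccl8. The cells were thus chosen by their own counts of these genes, Spp1 above all. Cells of this gate with 20 or more Spp1 counts were the Spp1-high macrophages, and cells of the same gate with at most 1 Spp1 count were the Spp1-low macrophages of the comparison. A count is 1 unique molecular identifier (UMI), which stands for 1 captured RNA molecule. Of 7005 barcodes, 120 were Spp1-high macrophages, 119 of them in 1 library and 1 in the other.

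Spp1 encodes osteopontin, a secreted and matrix-bound phosphoprotein that binds integrins and CD44. Tumour macrophages with high SPP1 are a recurrent myeloid state in solid tumours, usually described with fibronectin, the tetraspanin CD9 and the lysosomal and membrane glycoprotein GPNMB, and set apart from macrophages under interferon-gamma, which make CXCL9 and present antigen on MHC class II. Arginase 1, the product of Arg1, splits arginine and marks suppressive tumour macrophages that often carry SPP1 as well. The limit on Arg1 kept out cells with 10 or more of its counts, but not cells with fewer. In the library with 119 Spp1-high macrophages, 75 of them held 1 to 9 Arg1 counts.

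The study compared immune cells of tumours that had or had not responded to PD-1 blockade. C57BL/6 mice carried subcutaneous tumours of MC38-GFP+, a mouse adenocarcinoma line of the colon with green fluorescent protein, grown from 50000 injected cells, and all had received anti-PD-1 antibody at a dose that the submitters call sub-optimal. For both libraries the antibody dose was listed as 100 ug, with doses on days 12, 15, 18 and 22. CD45+ cells, that is leukocytes, had been sorted from the tumours and counted in droplets with a 3' assay. There was 1 non-responder library and 1 responder library; no untreated library entered, neither the age of the mice nor the number of mice behind a library was given, and a cell line tumour under the skin stands in for cancer of the colon.

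With 1 library per group no test between groups was possible, and the response to treatment and the library cannot be told apart. Within a library, cells are not replicates either. All intervals in brackets are exact 95% intervals for counting error, and no difference below has a replicate check. Levels are given as CPM, the summed counts of a gene over a group of cells scaled to a common total, and differences as the log2 ratio of such levels. Because Spp1 itself picked the cells, the differences between Spp1-high and Spp1-low macrophages are a description of what was picked.

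The starts of 4 genes are shown first: Spp1 and Gpnmb, the 2 named genes with the highest ratios, and Igf1 and Mt2, 2 others of the highest 12, picked for display because their windows hold letters of the motifs searched. RUNX and AP-1 factors act in myeloid differentiation and activation. The windows are the 250 bases before each start in RefSeq, build GRCm38.p6, read 5′ to 3′ on the strand of the gene, with the motif letters in capitals. Spp1 lies at chr5:104434861-104435110, Gpnmb at chr6:49036268-49036517, Igf1 at chr10:87860861-87861110 and Mt2 at chr8:94172368-94172617, all on the plus strand.
Spp1: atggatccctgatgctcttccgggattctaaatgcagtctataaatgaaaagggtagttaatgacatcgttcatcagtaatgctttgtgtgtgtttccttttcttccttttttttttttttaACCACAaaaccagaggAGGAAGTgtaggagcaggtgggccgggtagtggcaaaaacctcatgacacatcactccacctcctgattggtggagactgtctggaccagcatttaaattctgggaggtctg
Gpnmb: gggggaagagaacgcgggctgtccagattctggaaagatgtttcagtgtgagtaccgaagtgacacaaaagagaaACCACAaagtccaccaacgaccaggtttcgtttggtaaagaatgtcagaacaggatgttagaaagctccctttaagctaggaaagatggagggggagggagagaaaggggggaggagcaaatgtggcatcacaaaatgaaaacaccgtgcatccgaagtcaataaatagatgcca
Igf1: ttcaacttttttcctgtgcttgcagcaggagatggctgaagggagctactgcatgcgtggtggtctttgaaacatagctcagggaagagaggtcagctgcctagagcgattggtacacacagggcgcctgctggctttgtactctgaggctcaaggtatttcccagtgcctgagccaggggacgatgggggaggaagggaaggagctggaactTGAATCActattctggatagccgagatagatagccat
Mt2: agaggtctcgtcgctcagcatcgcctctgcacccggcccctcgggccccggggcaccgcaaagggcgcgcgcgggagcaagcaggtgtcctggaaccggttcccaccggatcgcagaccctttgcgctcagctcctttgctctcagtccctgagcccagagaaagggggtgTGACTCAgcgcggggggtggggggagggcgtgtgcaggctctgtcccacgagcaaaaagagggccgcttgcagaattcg
In the Spp1 window the capitals mark ACCACA, the RUNX letters TGTGGT on the other strand, and AGGAAGT, the letters of an ETS or PU.1 motif. In the Gpnmb window they mark ACCACA. In the Igf1 and Mt2 windows they mark TGAATCA and TGACTCA, both forms of the AP-1 letters TGANTCA. The motifs did not overlap each other in these windows, and a match describes letters and not binding. Spp1 has a further start in RefSeq, whose window at chr5:104435942-104436191 held none of the letters.

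Motif letters were searched on both strands, and a gene was counted if any of its windows held them. Of the 12 genes named as highest in Spp1-high macrophages, 10 had a window. TGANTCA was in 4 of these (Igf1, Il1rn, Mmp12 and Mt2), AGGAAGT in 3 (F13a1, Mmp12 in another of its windows, and Spp1), TGTGGT in 2 (Gpnmb and Spp1), and the E-box CACGTG of the lysosomal regulators MITF and TFEB in 0. Counted the same way over 27025 genes the shares were 7.82% for TGANTCA, 8.8% for AGGAAGT, 15.9% for TGTGGT and 6.86% for CACGTG. Of the 12 lowest genes, windows of 10 were searched, without H2-Ab1 and Cd74. Cd74 was left out because its chromosome was not searched among named genes, a limit not applied over the 27025 genes. Among these 10, TGANTCA was in 2, TGTGGT in 3, CACGTG in 2 and AGGAAGT in 0. With 10 genes a side these counts are a description, and RUNX letters were no more common among the highest than among the lowest genes.

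The libraries differed first in how many of their macrophages held Spp1. After the filters on genes and mitochondrial counts, 2565 of 2580 non-responder and 4376 of 4425 responder barcodes remained. The gate, at any Spp1 count, held 1045 non-responder and 1563 responder cells, with medians of 11027 and 9064 UMIs. Spp1-high macrophages were 119 of the 1045, or 11.4% [9.52, 13.5], in the non-responder library. In the responder library they were 1 of 1563, or 0.0640% [0.00162, 0.356]. Of all filtered cells the shares were 4.64% [3.86, 5.53] and 0.0229% [0.000579, 0.127].

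Between the limits, 462 non-responder cells and 94 responder cells of the gate held 2 to 19 Spp1 counts. At most 1 Spp1 count was seen in 464 non-responder cells, 44.4% of that gate, and in 1468 responder cells, 93.9%. With the limit set at 0.2% of a cell's UMIs in place of 20 counts, 107 non-responder cells passed and 1 responder cell did. At 0.1% of UMIs, 188 non-responder cells (18.0%) and 5 responder cells (0.320%) passed.

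**Figure D1:**
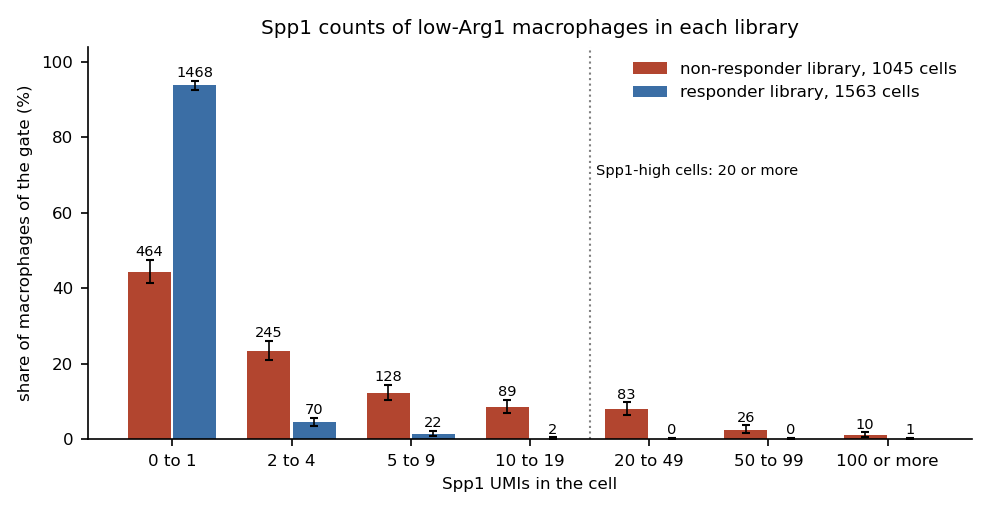
Share of low-Arg1 macrophages of the gate (y axis, percent) in bins of Spp1 UMIs per cell (x axis) for the non-responder and the responder library, with exact 95% intervals and the number of cells over each bar. The responder cells sit at 0 to 1 UMIs in 1468 of 1563 cases, while 119 non-responder cells lie right of the dotted line at 20.

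Spp1 was also plentiful outside the gate, in the non-responder library above all. Over all filtered cells, whatever their type, 480 of 2565 non-responder cells (18.7% [17.2, 20.3]) and 29 of 4376 responder cells (0.663% [0.444, 0.9504]) held 20 or more Spp1 counts. Of the 480, 239 were outside the limit on Arg1, 124 outside that on C1q, 124 outside that on Mki67 and Top2a and 47 outside that on Nos2, with some cells outside several limits. Macrophages that met every limit but held 10 or more Arg1 counts beside 20 or more of Spp1 numbered 90 in the non-responder library and 3 in the responder library.

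Free RNA in the droplets may bear on these counts, and it was not measured directly. Spp1 was therefore read in T cells, taken as cells with 2 or more Cd3d, Cd3e or Cd3g counts and under 0.2% C1q counts. Of the non-responder T cells 27 of 64 (42.2% [29.9, 55.2]) held an Spp1 count, against 776 of the 1045 gated macrophages (74.3% [71.5, 76.9]). In the responder library it was 8 of 79 T cells (10.1% [4.47, 18.98]) and 256 of 1563 macrophages (16.4% [14.6, 18.3]). Median depths were 4975.5 and 3692 UMIs in the T cells. The summed Spp1 level of the T cells was 633 CPM in the non-responder library, against 778 CPM over its gated macrophages. In the responder library it was 110 CPM, above the 43.9 CPM of its gated macrophages. These sums rested on few T cells: 4 non-responder T cells held 20 or more counts, and 1 responder T cell held 30 of the 39 counts of its group. The median T cell held 0 in both libraries, and the median gated macrophage 2 in the non-responder and 0 in the responder library. Spp1 over the gated responder macrophages was thus not shown to exceed that of T cells in the same library, and the non-responder levels lay near each other, while the 119 cells stood at 3973 CPM. The source of the Spp1 counts in T cells was not tested. The part of free RNA in the Spp1 counts of single macrophages was not tested either.

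The picked cells looked like whole, deep macrophages. In the non-responder library the 119 cells had a median of 12273 UMIs (3124 to 32015) and 2664 genes, against 10108.5 UMIs and 2339.5 genes in the 464 Spp1-low macrophages. The median mitochondrial share was 2.11% against 2.30%, and the ribosomal share 19.7% against 19.05%. The C1q share was lower, at 1.93% against 2.38%. A deeper cell reaches 20 counts more easily, and a gene is more easily seen in it. The main genes are therefore also given after every cell was thinned to 5000 UMIs, which kept 113 and 426 cells. The groups were set on the full counts, so thinning evens out detection but does not change which cells were picked.

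Marker lists of cell types were read next. All 12 genes of the macrophage list were detected, at a summed 35637 CPM in Spp1-high and 42762 CPM in Spp1-low cells. Single cells ranged from 16709 to 74051 CPM and from 11241 to 87379 CPM. C1qa, C1qb and C1qc are on that list, and they took a mean of 2.04% of UMIs in the Spp1-high cells. The gate required at least 1%, so the sum is not an independent check of identity. Most lists of markers of other cells had few counts in the 119 cells, though some were seen in many of the cells. T cell markers gave 4 counts in all, with Cd3d, Cd3e, Cd3g, Cd8b1 and Lck at 0, of which the 3 Cd3 genes were set to 0 by the gate. NK cell markers gave 14 counts with Ncr1, Gzma, Eomes and Klra8 at 0, and dendritic cell markers 15 counts with Flt3, Zbtb46, Clec9a, Ccr7, Itgae and Siglech at 0. B cell markers gave 42 counts with Ms4a1 at 0, and mast cell markers 1 count. Fibroblast markers gave 8 counts with Col1a1 and Col1a2 at 0, endothelial markers 14, erythroid markers 8, and epithelial markers 5 with 7 of 8 genes at 0, cells that the CD45 sort should remove in any case. Neutrophil markers stood at 39.6 CPM in Spp1-high and 39.7 CPM in Spp1-low cells, and monocyte markers at 141 CPM and 186 CPM. Neutrophil markers were seen in 39.5% against 31.7% of cells, monocyte markers in 52.1% against 50%, and B cell markers in 23.5% against 24.4%.

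The label's own markers were then read. They were chosen with earlier results of these data known, so their levels describe the cells and do not check the label. Spp1 counts ran from 20 to 372 in a cell with a median of 37, and Spp1 took a median of 0.322% (0.105% to 2.71%) of a cell's UMIs. Summed over cells, Spp1 (chr5:104435118-104441050, GRCm38) stood at 3973 CPM in Spp1-high and 41.4 CPM in Spp1-low macrophages, as the gate requires.

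Fn1 (chr1:71585520-71653200), which encodes the matrix glycoprotein fibronectin, was higher in Spp1-high macrophages. The lowest, median and highest cell stood at 0, 232 and 9596 CPM, against 0, 0 and 1843 CPM in Spp1-low macrophages. Most Spp1-high cells lay above the median Spp1-low cell, and the ranges overlapped. The summed level was 449 CPM [416, 484] against 131 CPM [121, 142], a log2 ratio of 1.78 [1.62, 1.93]. In thinned cells Fn1 was seen in 62.0% against 31.2% of cells, and in 7.81% of the non-responder T cells without thinning.

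Cd9 (chr6:125460266-125494791), which encodes a tetraspanin that organises membrane receptors, was found in nearly every Spp1-high cell. Cells ranged from 0 over a median of 477 to 1644 CPM, against 0, 218 and 3926 CPM in Spp1-low cells. The medians differed, and the highest single cell was an Spp1-low one. The summed level of Cd9 was 574 CPM [536, 613] against 275 CPM [261, 291], a log2 ratio of 1.06 [0.93, 1.18]. In thinned cells Cd9 was seen in 88.5% against 66.4%, and 15.6% of the T cells held a count.

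Gpnmb (chr6:49036546-49070929), a glycoprotein of lysosome and cell surface, had the highest ratio after Spp1 and was yet seen in few cells. It was detected in 17 of 119 Spp1-high (14.3%) and 11 of 464 Spp1-low cells (2.37%), and in 1 of 64 T cells. Thinned, the shares were 9.73% and 1.64%. The level was 33.8 CPM [25.2, 44.3] against 4.68 CPM [2.93, 7.08], a log2 ratio of 2.85 [2.11, 3.64]. Pmp22 (chr11:63128982-63159547), a tetraspan protein of the membrane, was at a median of 0 CPM in both groups, with highest cells of 1609 and 2774 CPM. Its summed level was 118 CPM [102, 137] against 61.2 CPM [54.3, 68.7], a log2 ratio of 0.95 [0.67, 1.22]. Over the alternative settings the ratio of Pmp22 ran from 0.38 to 1.29. Thinned, Pmp22 was seen in 28.3% against 16.0% of cells, and 6.25% of T cells held a count.

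Few cells carried the whole signature. Of the 4 markers Fn1, Cd9, Gpnmb and Pmp22, 1 Spp1-high cell held none, 12 held 1, 67 held 2, 34 held 3 and 5 held all 4. In Spp1-low macrophages these numbers were 43, 202, 166, 52 and 1 of 464. After thinning, 3 or 4 markers were seen in 14 and 3 of 113 Spp1-high cells and in 27 and 1 of 426 Spp1-low cells. Inside the 119 Spp1-high cells, Spearman's rho of Spp1 was 0.07 with Fn1, 0.05 with Cd9, -0.04 with Gpnmb and 0.21 with Pmp22, while it was -0.40 with depth and -0.27 with the C1q share. These are weak correlations of sparse counts that share each cell's depth, and are given as a description.

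Across all genes, few stood far apart between the groups. Of 6541 genes with 50 or more counts in both groups together, 58 were more than 2-fold higher in Spp1-high than in Spp1-low macrophages (0.887%) and 123 more than 2-fold lower (1.88%), and the median log2 ratio was 0.01. These shares are a background and not calls of a test. The Spp1-high cells held 1539493 UMIs in all against 4705732, so a gene near the limit of 50 counts rests on few counts in them. Of the genes past 2-fold at 20 CPM or more in the higher group, also past 2-fold in thinned cells, 34 were higher and 24 lower, and 12 in each direction are named here.

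Among the 12 highest, besides Spp1, Gpnmb and Fn1, stood Mmp12, F13a1 and Angptl2. Mmp12, the macrophage elastase, was at 85.1 CPM against 17.6 CPM, a log2 ratio of 2.27 [1.86, 2.68], but 60 of its 131 counts lay in 1 cell. Without the top cell of each group the ratio of Mmp12 was 1.53, among cells with Arg1 at 0 it was 0.78, and among cells with C1q at 2% or more it was -0.40. F13a1, the A chain of the transglutaminase factor XIII, which crosslinks fibrin and fibronectin, was at 44.2 CPM against 10.8 CPM, a log2 ratio of 2.03 [1.48, 2.58], and at 1.34 with Arg1 at 0. Angptl2, a secreted angiopoietin-like protein, was at 20.8 CPM against 5.95 CPM, a log2 ratio of 1.80 [1.03, 2.59], or 1.17 among cells of 8000 to 20000 UMIs.

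Igf1, Il1rn and Cxcl1 were also among the 12, although the list of cytokines and growth factors leaned the other way, with 5 of 12 measured genes higher and 7 lower and a median log2 ratio of -0.15. Igf1, insulin-like growth factor 1, was at 34.4 CPM against 10.4 CPM, a log2 ratio of 1.73 [1.14, 2.32], and at 0.79 with Arg1 at 0. Il1rn, the interleukin-1 receptor antagonist, had a median cell at 69 CPM against 0 CPM, ranges of 0 to 5611 and 0 to 3485 CPM, and summed levels of 204 CPM against 71.8 CPM, a log2 ratio of 1.51 [1.28, 1.73]. Il1b, the cytokine whose receptor that antagonist blocks, stood on the other side, at 128 CPM against 306 CPM, a log2 ratio of -1.26 [-1.48, -1.04]. Cxcl1, a neutrophil-attracting chemokine, was at 26.0 CPM against 8.08 CPM, a log2 ratio of 1.69 [1.01, 2.37], with 19 of 40 counts in 1 cell, and ran from 0.16 with C1q at 2% or more to 2.80 with Arg1 at 0.

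The other 3 of the 12 were Mt2, Fabp5 and Smyd5. Mt2, a metallothionein that binds zinc and copper, was at 325 CPM against 73.3 CPM, a log2 ratio of 2.15 [1.95, 2.35], with 163 of its 500 counts in 1 cell, and at 1.07 with Arg1 at 0. Mt1 and Mt2 are close copies, and how reads were shared between them is not known. Fabp5, a fatty acid binding protein of lipid-laden macrophages, was at 254 CPM against 94.8 CPM, a log2 ratio of 1.42 [1.22, 1.62], and at 0.77 with C1q at 2% or more. Its median cell stood at 61 CPM against 0 CPM, with ranges up to 3101 and 2525 CPM that overlapped. Smyd5, of a methyltransferase family, was at 23.4 CPM against 7.01 CPM, a log2 ratio of 1.74 [1.01, 2.46].

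After Cxcl13 and Slc12a9, the genes furthest below the Spp1-low macrophages were of MHC class II, the proteins that show peptides to CD4 T cells. H2-Ab1 (chr17:34257689-34269419) had a lowest, median and highest cell of 0, 176 and 19826 CPM, against 0, 966 and 31020 CPM. H2-Aa (chr17:34282744-34287823) had 0, 87 and 18610 CPM against 0, 817 and 27216 CPM. Medians were lower in Spp1-high cells while some Spp1-high cells reached levels far above the median of the Spp1-low ones, so the groups overlapped. Summed, H2-Ab1 stood at 1210 CPM against 4069 CPM, a log2 ratio of -1.75 [-1.82, -1.68], and H2-Aa at 1226 CPM against 3765 CPM, a log2 ratio of -1.62 [-1.69, -1.55].

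H2-Eb1 (chr17:34305867-34316674), a further class II chain, was at 872 CPM against 2889 CPM, a log2 ratio of -1.73 [-1.81, -1.65]. Cd74, the invariant chain that escorts class II to the endosome, was at 4177 CPM against 12443 CPM, a log2 ratio of -1.57 [-1.61, -1.54], with median cells of 855 and 4809 CPM. H2-DMb1, part of the peptide exchanger H2-DM, was at 225 CPM against 537 CPM, a log2 ratio of -1.26 [-1.42, -1.09]. Within the 119 cells these genes went together: Spearman's rho ran from 0.66 to 0.76 over the pairs of H2-Ab1, H2-Aa, H2-Eb1 and Cd74. H2-Eb1 came to -1.12 and H2-Aa to -1.07 with Arg1 at 0, and close copies among the H2 genes may share reads.

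The remaining genes of the lowest 12 had fewer counts. Ppfia4, a liprin scaffold protein, was at 68.2 CPM against 184 CPM, a log2 ratio of -1.43 [-1.74, -1.14]. Slc12a9, a solute carrier, was at 12.3 CPM against 42.7 CPM, a log2 ratio of -1.79 [-2.55, -1.11]. P2ry14, a receptor for UDP-sugars, Pgs1, an enzyme of phosphatidylglycerol synthesis, and Serpinf1, a secreted serpin, had log2 ratios of -1.31, -1.26 and -1.25. With Spp1-high set at 10 counts, P2ry14 came to -0.55, Slc12a9 to -1.04, Pgs1 to -0.67 and Il1b to -0.78, and with C1q at 2% or more Serpinf1 came to -0.71. Cxcl13, a B cell chemokine, had 0 counts in Spp1-high and 113 in Spp1-low cells, of which 112 lay in 1 cell.

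**Figure D2:**
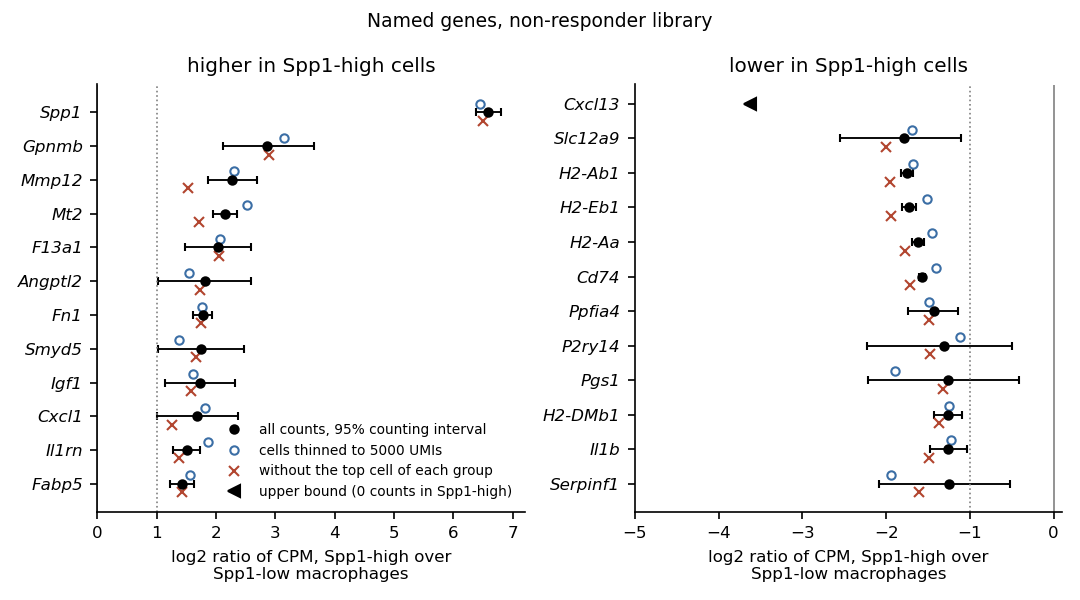
Log2 ratio of CPM (x axis) of Spp1-high over Spp1-low macrophages of the non-responder library for the 12 highest and the 12 lowest named genes, with 95% counting intervals, beside the ratio in cells thinned to 5000 UMIs and the ratio without the top cell of each group. Mmp12 moves most among the higher genes, from 2.27 to 1.53 without its top cell, and Cxcl13 is an upper bound because its Spp1-high count was 0.

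The receptors of osteopontin were close to level. Of 7 measured receptor genes, 6 were higher and 1 lower in Spp1-high macrophages, with a median log2 ratio of 0.12 beside 0.01 over all genes. CD44, which binds osteopontin and hyaluronan, had Cd44 at 103 CPM against 76.1 CPM, a log2 ratio of 0.44 [0.16, 0.71]. Itgb1, the integrin beta chain shared by many of these receptors, was at 89.6 CPM against 67.4 CPM, 0.41 [0.11, 0.71], and Itgav, of the alpha v chain, at 25.3 CPM against 23.6 CPM, 0.10 [-0.46, 0.64]. Itgb5, which pairs with alpha v, was the lower one, at 94.2 CPM against 134 CPM, -0.51 [-0.78, -0.25].

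Matrix and lipid-handling genes leaned upward as groups. Of 14 measured genes of matrix and adhesion, 11 were higher and 3 lower, with a median of 0.43, where 50.8% of all 6541 genes were above 0. Of 13 genes of the lipid-associated macrophage programme 11 were higher and 2 lower, with a median of 0.45. The former holds Fn1 and the latter Gpnmb, both markers of the label, so their direction is not independent of the choice of cells. Anxa1, the annexin of inflammatory resolution, was at 256 CPM against 122 CPM, 1.07 [0.88, 1.26], and Lgals3, galectin-3, at 3760 CPM against 2263 CPM, 0.73 [0.69, 0.78], while Thbs1, thrombospondin-1, was at 10.4 CPM against 22.1 CPM, -1.09 [-1.95, -0.32]. Trem2, the lipid receptor that names the programme, was nearly level at 928 CPM against 852 CPM, 0.12 [0.04, 0.21]. Plin2, of the lipid droplet coat, was at 388 CPM against 224 CPM, 0.79 [0.64, 0.94], and Apoe, the lipid carrier, at 11519 CPM against 15109 CPM, -0.39 [-0.42, -0.37]. With Arg1 at 0 the median of the matrix list was 0.12.

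Tetraspanins and the PMP22 family divided, with 8 of 13 higher and 5 lower and a median of 0.18, or -0.05 with Arg1 at 0. Emp1, of the PMP22 family, was at 160 CPM against 74.4 CPM, and Cd82 at 57.2 CPM against 98.4 CPM, -0.78 [-1.13, -0.45], while Cd63 was level at -0.01 [-0.08, 0.07]. Lysosome genes were also divided, 8 of 18 higher and 10 lower with a median of -0.02. Among them Ctsd, cathepsin D, stood at 0.66 [0.60, 0.72] and Ctsl at 0.79 [0.66, 0.92], and Ctss, the cathepsin that trims the invariant chain in class II loading, at -0.51 [-0.54, -0.47]. Acp5, the tartrate-resistant phosphatase of osteoclasts, another cell known for osteopontin, was at 134 CPM against 241 CPM, -0.85 [-1.07, -0.64].

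Hypoxia and glycolysis genes were higher in small steps. Of 14 hypoxia genes 13 were higher and 1 lower, with a median of 0.36, and of 15 glycolysis genes 13 were higher and 2 lower, with a median of 0.32. Hilpda, which guards lipid droplets under low oxygen, was at 136 CPM against 84.2 CPM, 0.69 [0.44, 0.94]. Slc2a1, the glucose transporter GLUT1, was at 130 CPM against 87.6 CPM, 0.57 [0.32, 0.82], and Gapdh at 4069 CPM against 3139 CPM, 0.37 [0.33, 0.42]. Hk2, of the hexokinase step, was at 61.7 CPM against 70.6 CPM, -0.19 [-0.54, 0.14].

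Haem, iron and antioxidant genes were higher in 9 of 11 cases, with a median of 0.50. Hmox1, haem oxygenase 1, had a median cell at 227 CPM against 129 CPM, with ranges up to 8166 and 7646 CPM that overlapped, and summed levels of 597 CPM against 238 CPM, a log2 ratio of 1.33 [1.20, 1.46]. Prdx1, a peroxiredoxin, was at 0.62 [0.55, 0.68]. DNA replication genes were higher in 18 of 22 cases with a median of 0.34, although cells with Mki67 or Top2a had been left out, and at -0.013 with C1q at 2% or more. Respiratory chain genes were higher in 15 of 18 cases with a median of 0.10.

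Antigen presentation and interferon lists stood on the other side. All 7 measured MHC class II genes were lower, with a median of -1.57 that came to -1.07 with Arg1 at 0, and all 15 measured MHC class I genes were lower with a median of -0.44. B2m, the light chain of class I, was at -0.27 [-0.29, -0.24]. Of 16 genes induced by interferon-gamma 3 were higher and 13 lower, with a median of -0.65. Gbp8, a guanylate-binding protein, was at 3.90 CPM against 15.7 CPM, -2.01 [-3.50, -0.82]. Cd274, which encodes the PD-1 ligand PD-L1, was 1 of the 3 higher genes, at 36.4 CPM against 24.9 CPM, 0.55 [0.06, 1.02].

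Type I interferon genes were lower in 19 of 21 cases by less, with a median of -0.25 that ran from -0.02 to -0.75 over the alternative settings. Immediate early genes, which respond within minutes and also to cell dissociation, were lower in 18 of 19 cases with a median of -0.36. Fos was at 1111 CPM against 1704 CPM, -0.62 [-0.69, -0.54], and Egr1 at 93.5 CPM against 162 CPM, -0.80 [-1.06, -0.54]. The part of dissociation in these values was not tested.

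Chemokines, monocyte genes and resident-type genes each went both ways. Of 14 chemokines 10 were higher, with Pf4, platelet factor 4, at 939 CPM against 555 CPM, 0.76 [0.66, 0.85], and Ccl9 at 507 CPM against 319 CPM, 0.67 [0.54, 0.80], while Ccl5, a T cell attractant, was at 478 CPM against 765 CPM, -0.68 [-0.79, -0.56]. The chemokine median was 0.24, or -0.03 with C1q at 2% or more. Of 11 monocyte genes 5 were higher and 6 lower. The calcium-binding S100a4 was at 166 CPM against 67.2 CPM, 1.31 [1.06, 1.55], and S100a6 at 540 CPM against 261 CPM, 1.05 [0.92, 1.18], but Ly6c2 and Plac8, of the blood monocyte, were at -1.01 [-1.85, -0.27] and -1.15 [-1.95, -0.43]. Of 21 C1q and resident-type genes 7 were higher and 14 lower, with a median of -0.19, where the rule itself uses C1q.

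The remaining lists were divided. Metalloproteinases and their inhibitors were higher in 4 of 7 cases and lower in 3 (median 0.39), scavenger receptors in 10 and 8 of 18 (0.09), suppressive and checkpoint genes in 6 and 6 of 12 (-0.03), and transcription factors in 8 and 13 of 21 (-0.06). Alternative activation genes were higher in 7 of 10 cases, with a median of 0.21, or -0.06 with Arg1 at 0. Of these lists' members Adam8, a membrane metalloproteinase, was at 199 CPM against 89.3 CPM, 1.16 [0.94, 1.38], and Nt5e, which encodes the adenosine-producing enzyme CD73, at 39.6 CPM against 15.7 CPM, 1.33 [0.82, 1.84]. Msr1, a scavenger receptor, was at 257 CPM against 149 CPM, 0.79 [0.60, 0.97]. Retnla, of alternative activation and against the direction of most of that list, was at 2.60 CPM against 15.1 CPM, -2.54 [-4.45, -1.12], from 4 and 71 counts. Bhlhe40 and Bhlhe41, a pair of related repressors, were both at 0.85, and Batf3, a factor of cross-presenting dendritic cells, at -0.92 [-1.58, -0.31].

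**Figure D3:**
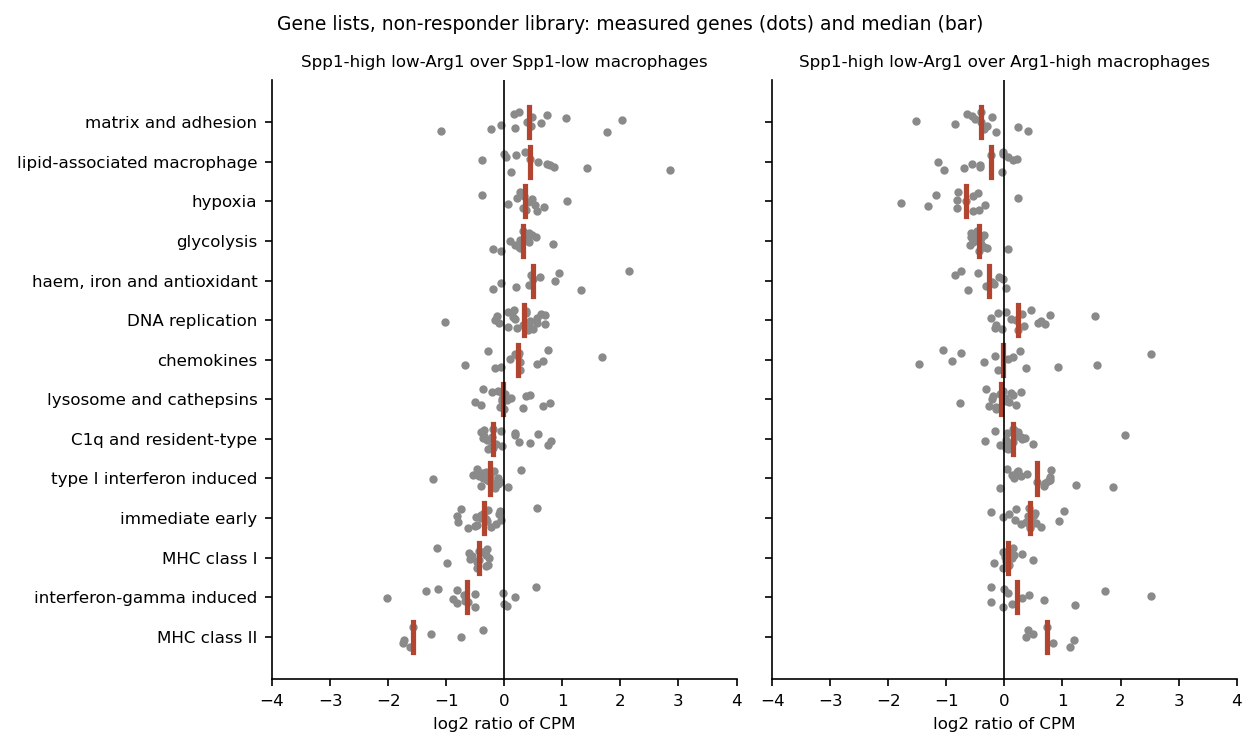
Log2 ratios of CPM (x axis) of the measured genes (dots) and the median (bar) for 14 gene lists (y axis) in the non-responder library, against Spp1-low macrophages on the left and against Spp1-high macrophages with 10 or more Arg1 counts on the right. MHC class II has the lowest median on the left at -1.57 and the highest on the right at 0.74, and the hypoxia median lies at 0.36 on the left and -0.66 on the right.

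The genes whose level followed that of Spp1 from cell to cell were read over all 1045 gated macrophages of the non-responder library. By Spearman's rho over 7611 genes the 10 nearest were Capg (0.335), Cd9 (0.305), Fn1 (0.264), Anxa2 (0.254), Vim (0.241), Cstb (0.233), Msr1 (0.229), AA467197 (0.226), Crip1 (0.223) and Gapdh (0.223). The correlations are low and share each cell's depth. Capg, an actin-capping protein, was at 919 CPM in Spp1-high against 467 CPM in Spp1-low macrophages, Anxa2, an annexin that assembles plasmin at the cell surface, at 420 CPM against 206 CPM, and Vim, the vimentin filament, at 1497 CPM against 983 CPM. At the other end stood Tmem176b (-0.259) and Ctss (-0.254), and Tmem176b was at 268 CPM against 585 CPM.

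A few of these genes were read along the Spp1 counts. In the non-responder gate, bins of 0 to 1, 2 to 4, 5 to 9, 10 to 19, 20 to 49 and 50 to 99 Spp1 counts held 464, 245, 128, 89, 83 and 26 cells, and 10 cells of 100 or more were left out as too few. Fn1 stood at 131, 210, 333, 286, 313 and 518 CPM over these bins. Cd9 stood at 275, 324, 433, 423, 551 and 633 CPM. Both were already higher at 2 to 4 counts than at 0 to 1, and Fn1 stepped back once, at 10 to 19 counts. H2-Ab1 was at 4069, 2732, 2224, 2599, 1501 and 839 CPM, and Cd74 at 12443, 8593, 7098, 8329, 4902 and 3183 CPM. These class II genes were lower from 2 to 4 counts on, with a step back at 10 to 19 as well.

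Fabp5, Il1rn, Gpnmb and Hmox1 stayed near their lowest level up to 9 counts. Fabp5 was at 94.8, 98.5, 106, 186, 266 and 291 CPM, and Il1rn at 71.8, 72.0, 85.4, 162, 209 and 195 CPM. Gpnmb was at 4.68, 7.53, 3.23, 11.2, 40.5 and 21.9 CPM, and Hmox1 at 238, 259, 257, 335, 667 and 436 CPM, so the highest bin was not the one with most Gpnmb or Hmox1. The bins differed in depth, with medians from 10108.5 UMIs in the lowest to 13779 in the highest. Thinning left the ratio of the highest to the lowest bin at 2.11 for Fn1 and -2.19 for H2-Ab1, against 1.98 and -2.28 before.

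The limit of 20 counts lay within this range. The 37 cells with 15 to 19 Spp1 counts, just outside, stood at 352 CPM [297, 415] of Fn1, 418 CPM [358, 486] of Cd9, 14.7 CPM [5.38, 31.9] of Gpnmb and 75.8 CPM [51.5, 108] of Pmp22. The 23 cells with 20 to 24 counts, just inside, stood at 269 CPM [211, 337], 530 CPM [448, 622], 53.7 CPM [30.1, 88.6] and 21.5 CPM [7.88, 46.8]. The intervals overlapped for Fn1, Cd9 and Gpnmb, and Pmp22 was lower just inside.

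**Figure D4:**
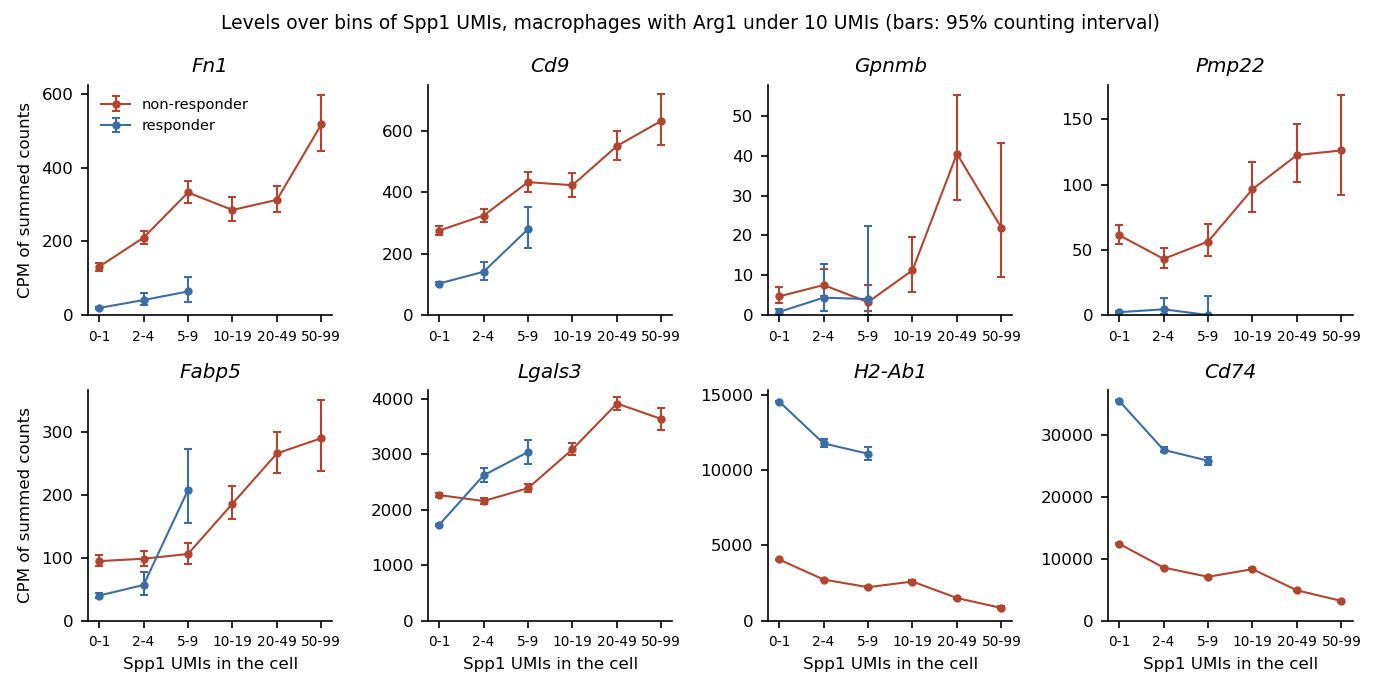
CPM of summed counts (y axis) of 8 genes over bins of Spp1 UMIs per cell (x axis) in macrophages of the gate, non-responder and responder library, with 95% counting intervals. Cd9 and Fn1 are already higher at 2 to 4 Spp1 UMIs than at 0 to 1 in both libraries, and H2-Ab1 is lower; the responder library has cells enough for 3 bins only.

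Spp1-high macrophages set apart from these by the Arg1 limit alone were read next. They were the 90 non-responder cells with 20 or more Spp1 and 10 or more Arg1 counts that met every other limit. These 90 cells were somewhat deeper, with a median of 14161.5 UMIs. Whether they or the low-Arg1 cells with fewer Spp1 counts were more like the 119 cells was not measured. Arg1 stood at 2895 CPM in them, at 200 CPM in the Spp1-high low-Arg1 and at 87.3 CPM in the Spp1-low cells; among the 119 low-Arg1 cells, 44 held no Arg1 count and 75 held 1 to 9. Spp1 was at 5632 CPM in the Arg1-high cells. Of the label's markers, Cd9 and Fn1 did not separate the 2 kinds as they did from Spp1-low cells, while Pmp22 and Gpnmb were higher in the Arg1-high cells. The log2 ratio, low-Arg1 over Arg1-high, was -0.04 for Cd9 and -0.14 for Fn1 (0.36 with Spp1 at 40 or more). Their levels were 574 CPM against 589 CPM and 449 CPM against 493 CPM. Pmp22 was at 118 CPM against 168 CPM [147, 192], -0.51, and Gpnmb at 33.8 CPM against 69.7 CPM [56.2, 85.5], -1.05, which turned to 0.15 with C1q at 2% or more. All 4 of Fn1, Cd9, Gpnmb and Pmp22 were seen in 10 of the 90 cells and 3 of them in 47, against 5 and 34 of the 119 low-Arg1 cells. After thinning these numbers were 4 and 26 of 89 against 3 and 14 of 113.

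Of 4362 measured genes, 39 were more than 2-fold higher in low-Arg1 than in Arg1-high cells (0.894%) and 26 more than 2-fold lower (0.596%). Cxcl10, a chemokine for CXCR3 on T cells, was at 333 CPM against 57.6 CPM, a log2 ratio of 2.53 [2.18, 2.90], and seen in 26.5% against 12.4% of thinned cells. Irg1, which makes itaconate, was at 105 CPM against 21.2 CPM, 2.31 [1.72, 2.94]. Ifit2, an interferon-induced RNA-binding protein, was at 55.2 CPM against 15.2 CPM, 1.87 [1.15, 2.65], but at 0.13 with C1q at 2% or more.

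P2ry12, an ADP receptor of microglia, was at 60.4 CPM against 14.4 CPM, 2.07 [1.35, 2.86], in 24.8% against 8.99% of thinned cells. Ccnb2, a mitotic cyclin, was at 42.2 CPM against 14.4 CPM, 1.55 [0.80, 2.37], and Apobec3, a restriction factor, at 87.0 CPM against 34.1 CPM, a ratio of 1.35. Ccl5 came to 1.59 with 552 of 736 counts in 1 cell, and to 0.02 without the top cells. Ifitm1 came to 1.56 with 47 of 86 counts in 1 cell. The other 4 of the 12 were Avpi1 (1.84), Lias (1.44, or 0.24 with Spp1 at 10 or more), Supt20 (1.40) and Arf5 (1.34).

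On the lower side Arg1 set the groups. Egln3, the oxygen-sensing prolyl hydroxylase PHD3, was at 20.8 CPM against 71.2 CPM, -1.78 [-2.40, -1.18], in 7.08% against 21.3% of thinned cells. Hilpda was at 136 CPM against 339 CPM, -1.32 [-1.56, -1.08], in 30.1% against 52.8% of thinned cells. Mgarp, a mitochondrial protein, was at 14.9 CPM against 48.5 CPM, -1.70. Mmp12 was at 85.1 CPM against 353 CPM, -2.05 [-2.34, -1.77], and F13a1 at 44.2 CPM against 127 CPM, -1.52 [-1.95, -1.10].

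Il1a, of the interleukin-1 family, was at 6.50 CPM against 46.2 CPM, -2.83 [-3.96, -1.86], and Plac8 at 11.7 CPM against 111 CPM, -3.24 [-4.04, -2.53]. Mmp13, a collagenase, was at 4.55 CPM against 47.0 CPM, -3.37, or -2.81 without the top cells. Ccl6 was at 217 CPM against 604 CPM, -1.48, or -1.10 without the top cells. Cd36, a fatty acid transporter, was at 19.5 CPM against 43.2 CPM, -1.15, and AI427809 at -1.58. Under at least 1 alternative setting, 17 of the 24 genes named in this comparison had a log2 ratio smaller by more than 1.5 times. With Spp1 at 10 or more, Il1a came to -1.45, Irg1 to 1.32, P2ry12 to 1.38, Mmp13 to -2.15, Avpi1 to 1.17, Supt20 to 0.67 and Arf5 to 0.72. With C1q at 2% or more, Ccnb2 came to 0.84, F13a1 to -0.99 and Cd36 to -0.70. Plac8 came to -1.76 in cells of 8000 to 20000 UMIs, Mmp12 to -1.35 with Spp1 at 0.2% of UMIs, Ccl6 to -0.78 without the deepest 10% of cells, and Ifitm1 to 0.77 with Spp1 at 40 or more.

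As lists, 7 of 7 MHC class II genes were higher in low-Arg1 than in Arg1-high cells, with a median of 0.74, beside a median of 0.05 and 58.1% above 0 over all genes. H2-Ab1 stood at 1210 CPM against 676 CPM, 0.84 [0.72, 0.96]. Of 17 type I interferon genes 16 were higher with a median of 0.56, or 0.11 with C1q at 2% or more, and of 18 immediate early genes 16 with a median of 0.43. Lower were 12 of 13 hypoxia genes with a median of -0.66, 14 of 15 glycolysis genes with a median of -0.44, 11 of 13 matrix genes with a median of -0.40 and 9 of 10 haem and iron genes with a median of -0.27. Interferon-gamma genes, 8 of 12 higher with a median of 0.22, were near that share and came to -0.08 in thinned cells.

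For these lists, apart from interferon-gamma genes, the Spp1-high low-Arg1 cells thus lay between the Spp1-low and the Spp1-high Arg1-high cells. H2-Ab1 stood at 4069, 1210 and 676 CPM over the 3 groups, Fabp5 stood at 94.8, 254 and 411 CPM, Hilpda at 84.2, 136 and 339 CPM, and Mmp12 at 17.6, 85.1 and 353 CPM. The counting intervals of neighbours in these orders did not overlap. Cxcl10 did not follow this order, at 292, 333 and 57.6 CPM. The comparisons share the 119 cells, and so are not independent of each other.

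**Figure D5:**
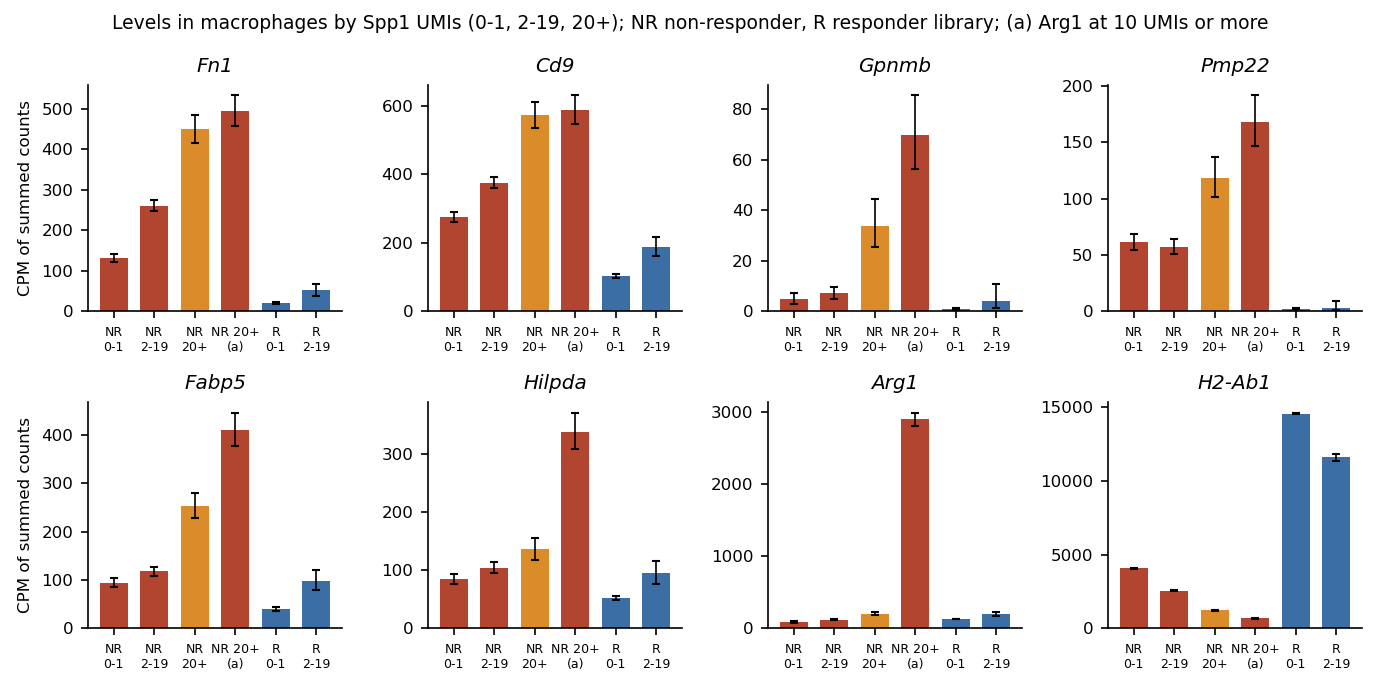
CPM of summed counts (y axis) of 8 genes in macrophages of the gate by library and Spp1 UMIs (x axis), with 95% counting intervals; the orange bars are the Spp1-high low-Arg1 macrophages, and (a) marks Spp1-high cells with 10 or more Arg1 UMIs. Cd9 and Fn1 are alike in both Spp1-high groups, Hilpda and Fabp5 are highest in the Arg1-high one, and H2-Ab1 is highest in the responder library.

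The responder library could give only 1 Spp1-high cell, so the comparison was not run there. That cell had 4738 UMIs and 1509 genes, with 108 Spp1 counts (2.28% of its UMIs), 4 Arg1 counts and a C1q share of 1.16%. It held 4 Fn1 and 5 Cd9 counts and none of Gpnmb or Pmp22, beside 64 of Cd74 and 25 of H2-Ab1. Its barcode was not among the 14 found in both libraries, and 1 of the 119 non-responder cells was.

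The 94 responder cells with 2 to 19 Spp1 counts were set against the 1468 with at most 1, a comparison added after the counts had been seen. Spp1 was at 357 CPM in the former, against 110 CPM summed over the responder T cells, and free RNA was not removed. Of 8262 measured genes, 98 were more than 2-fold higher (1.19%) and 377 more than 2-fold lower (4.56%), with a median of 0.00. Fn1 was at 51.6 CPM against 19.1 CPM, a log2 ratio of 1.43, Fabp5 at 98.0 CPM against 39.9 CPM, 1.30, Pf4 at 317 CPM against 143 CPM, 1.14, and Cd9 at 187 CPM against 103 CPM, 0.86. Pmp22, another of the label's markers, had a log2 ratio of 0.53 that did not hold its direction. It turned to -0.15 in thinned cells and to -0.37 when the CPM of single cells were averaged. No ratio of Gpnmb is given for these cells. Other named genes were Qpct (1.68), Lsp1 (1.36), Ptgr1 (1.34), Ccnb2 (1.27), Glipr2 (1.21) and Cenpa (1.09) on the higher side, and Rrad (-1.61), Dnase1l3 (-1.31), Pfkfb4 (-1.26), Ciita (-1.20), the master regulator of class II, and Tmem176b (-1.03) on the lower side. With Arg1 at 0, Glipr2 came to -0.016, Pf4 to 0.61, Lsp1 to 0.90 and Rrad to -1.03.

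The genes past 2-fold in the non-responder library, and some of the lists, were then read in these responder cells. Of the 57 genes other than Spp1 that were past 2-fold higher in Spp1-high cells, 50 were measured, and 40 were higher and 10 lower, with a median log2 ratio of 0.44. Of the 123 past 2-fold lower, 121 were measured, and 44 were higher and 77 lower, with a median of -0.18. Over all genes 50.4% were above 0. Matrix genes were higher in 12 of 13 cases (median 0.39), hypoxia genes in 13 of 14 (0.36) and lipid-associated genes in 11 of 12 (0.46, or -0.041 with Arg1 at 0). MHC class II genes were lower in 8 of 9 (-0.33). Monocyte genes were higher in 10 of 11 (0.57), unlike in the non-responder comparison, where they had gone both ways with a median of -0.005.

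Between the libraries, macrophages with at most 1 Spp1 count already differed in the same genes. Spp1-low macrophages stood at 131 CPM of Fn1 in the non-responder and 19.1 CPM in the responder library, at 275 CPM and 103 CPM of Cd9, at 61.2 CPM and 2.15 CPM of Pmp22, and at 4.68 CPM and 0.77 CPM of Gpnmb. They stood at 4069 CPM and 14586 CPM of H2-Ab1 and at 12443 CPM and 35610 CPM of Cd74. In the median over 9 measured class II genes, responder over non-responder Spp1-low cells, the log2 ratio was 1.52. In these levels, Spp1-high cells of the non-responder library were further from the responder macrophages in Fn1, Cd9 and class II than the Spp1-low cells of their own library were.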

How the data were processed

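The data were 2 droplet libraries of CD45+ cells, 1 per response group. Per the labels, the 10x Genomics 3' v3 kit was used, and the submitters' processing notes name Cell Ranger 1.1.0 and mouse build mm10 (GRCm38). No source used here gives the annotation or the cell-calling rule. The authors deposited filtered matrices of UMI counts, which were whole numbers. The 27998 identifiers came with symbols, and 27645 were found in GENCODE M21, from which positions were taken; 9 of 501 listed genes had no entry.

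Counts were summed over cells and scaled to CPM with exact Poisson intervals. Shares have Clopper-Pearson intervals, and log2 ratios a conditional exact binomial interval, all at 95% and for counting error only. PCR duplicates were handled by the UMIs upstream. A gene was measured at 50 or more counts in both groups together. Against a group with 0 counts, the ratio was a bound computed from 3 counts. Medians of lists were taken over measured genes. No doublet caller was run; the deepest 10% of cells were left out as an alternative.

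Named genes were the 12 with the largest log2 ratio in each direction among genes at 20 CPM or more in the higher group and past 2-fold in all and in thinned counts, without mitochondrial, ribosomal and unnamed gene models, plus the label's markers, osteopontin receptors, 2 to 4 members of a list and the 10 genes most like Spp1. Few of the responder genes met the rule: 15 higher and 8 lower. The cells, the rule and the gene lists were chosen with earlier results of these data known. Scripts were tested on simulated data. Python 3.11.15 with numpy 2.4.6, scipy 1.17.1, pandas 2.3.3 and matplotlib 3.10.9 was used, and edgeR 4.0.16 in R 4.3.3 for TMM scaling as an alternative.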

Additional observations from a re-analysis of the deposited data

How the results depend on the processing

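No paired analysis was possible because each group is 1 library. With 1 Spp1-high cell in the responder library, the Spp1-high comparison within that library and the comparison of Spp1-high cells between libraries were not run. The share of Spp1-high cells in the non-responder gate was 19.9% with Spp1 at 10 or more counts, 5.26% at 40 or more, 7.41% with Arg1 at 0 and 7.48% with C1q at 2% or more. In the responder gate it was 0% in cells thinned to 5000 UMIs, in cells of 8000 to 20000 UMIs, with Arg1 at 0 and with C1q at 2% or more, since the single cell was then left out.

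Counts of genes past 2-fold, Spp1-high over Spp1-low, were 311 higher and 524 lower when genes with 10 or more counts were measured, and 2326 and 603 with 1 or more, because low counts then enter. With Spp1 at 40 or more they were 99 and 251, with Spp1 at 10 or more 55 were lower, and against cells at 0 Spp1 counts 75 were lower. Against Arg1-high cells they were 425 and 306 with 10 or more counts, 1313 and 1306 with 1 or more, and 65 and 45 with Spp1 at 10 or more, while 15 were lower in thinned cells. In the responder library they were 738 and 581 with 10 or more counts, 3779 and 581 with 1 or more, and 50 and 251 with a pseudocount of 1 CPM.

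Values whose counting interval or spread had lain on one side of 0 and that turned direction were Mmp12 at -0.40 and the DNA replication list at -0.013 against Spp1-low cells, and Gpnmb at 0.15 against Arg1-high cells, all with C1q at 2% or more. Glipr2 at -0.016 and the lipid-associated list at -0.041 turned in the responder library with Arg1 at 0. Values nearer 0 turned as well, among them Fn1 (0.36) with Spp1 at 40 or more and the interferon-gamma list (-0.08) in thinned cells against Arg1-high cells. Against Spp1-low cells so did the tetraspanin (-0.05) and alternative activation (-0.06) lists with Arg1 at 0 and the chemokine list (-0.03) with C1q at 2% or more. In all, 1 of 26 genes and 10 of 30 lists turned at least once against Spp1-low cells, 3 of 28 and 11 of 28 against Arg1-high cells, and 2 of 23 and 15 of 29 in the responder library. The cause was not tested. Against Spp1-low cells, 370 of 466 values of named genes and 489 of 502 list medians under these alternatives moved by less than their counting interval or spread. The depth leaves genes under about 20 CPM with wide intervals.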

Other observations

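A few genes outside the lists named above also stood apart between Spp1-high and Spp1-low macrophages of the non-responder library, chosen after their values were seen. Pdpn, which encodes podoplanin, a mucin-type ligand of the platelet receptor CLEC-2, was at 133 CPM against 55.5 CPM, a log2 ratio of 1.26. Dok2, an adaptor that restrains receptor tyrosine kinase signals, was at 63.7 CPM against 25.1 CPM, 1.34. Rhoc, a small GTPase of cell movement, was at 63.0 CPM against 25.7 CPM, 1.29. AA467197, a gene of which no role is given here, was at 1060 CPM against 461 CPM, 1.20, and in the responder library at 1374 CPM in cells with 2 to 19 Spp1 counts against 898 CPM in those with at most 1. No replicate stands behind these values.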
